A study of Homo sapiens with 8 samples.

Results

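Interferon-stimulated genes were described here as a fixed list of 36 symbols, each matched through its Entrez gene ID to 1 row of the deposited count tables, out of 27936 genes in all. The list holds transcription factors of the pathway, RNA sensors, the IFIT family, ISG15 with genes of ubiquitin-like systems, antiviral effectors and several IFI genes. RNA-seq gave gene counts for 8 libraries of HEK293 cells, a human line made from embryonic kidney that carries adenoviral E1 genes. The KO arm held 2 libraries of HEK293 cells with guide sgRNA1 and 2 with guide sgRNA2, all with the genotype label HEKg1/C9 and named TIP60 knock-out, and the control arm held 2 libraries with sgRNA1 and 2 with sgRNA2, all with the genotype label HEKg1. Guide RNA expression had been induced in all 8 samples with doxycycline at 1 µg/ml for 3 days, no interferon treatment was named, and the labels do not say which sequence each guide targets or whether the cells were clones or pools. The comparison of KO with control asked which transcripts differ when TIP60, the lysine acetyltransferase encoded by KAT5, is targeted. The labels do not say what C9 is, and it is in the genotype label of every KO library and of no control library. An effect of C9 itself and an effect of the loss of TIP60 therefore cannot be told apart here.

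Interferons are secreted proteins that bind receptors at the cell surface and, through the kinases JAK1 and TYK2, activate a complex of transcription factors that includes STAT2 and IRF9. This complex binds a promoter element, the interferon-stimulated response element, and switches on many genes whose products sense, bind or degrade viral RNA. Many of them also have a basal level in cells that were never exposed to interferon, and the adenoviral E1A protein is known to blunt the response.

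KAT5 mRNA lay between 18 and 20.2 CPM in the KO libraries and between 44.5 and 49.0 CPM in the control libraries (log2 fold change -1.32 ± 0.064, SE, edgeR adjusted p = 6.72e-13). CPM are counts scaled to library size with edgeR's TMM factors. KO libraries held 13325415 to 18841774 gene counts and control libraries 3723992 to 14601552, with control sgRNA1 replicate 2 the shallowest. Of 13 HEK293 and kidney lineage markers, 11 were tested, 6 were higher in KO (among them the neurofilament gene NEFM, 12400 CPM in KO and 8379 CPM in control libraries) and 2 were lower (VIM, -0.30, and WT1, -0.41 on the log2 scale). The shares of all tested genes to set beside the calls of each marker list are 31.8% higher and 31.2% lower. The kidney factors PAX8 (6 counts in KO and 2 in control libraries) and LHX1 (10 and 9) were nearly silent. Of 14 leukocyte markers, PTPRC had 7 counts in all KO libraries and 2 in all control libraries, and the summed level of the list was 9.06 to 9.56 CPM in KO and 4.58 to 6.22 CPM in control libraries, most of it CD68. CD68 and CD14 were the only 2 of that list with enough counts for a test, and both were higher in KO, while MS4A1, LST1, AIF1 and LILRA4 had no count in any library. Fibroblast markers summed to 27.2 to 31.2 CPM in KO and 21.2 to 32.2 CPM in control libraries, and 6 endothelial markers, with KDR the most abundant, to 3.04 to 4.26 CPM in KO and 0 to 0.414 CPM in control libraries. The part of these markers in the results below was not tested. In bulk RNA, more cells with a transcript and more transcript per cell cannot be told apart.

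The interferon-stimulated genes did not move as a block. Of the 36 members, 26 had enough counts to be tested, and at an adjusted p under 0.05 (edgeR quasi-likelihood test, adjusted over all 14455 tested genes) 12 were higher in KO, 5 were lower and 9 were not called. Among all tested genes 31.8% were higher and 31.2% lower, against 46.2% and 19.2% of the tested members. The largest changes lay in members that were rare or silent in the control cells. A gene under the count filter in the control libraries was tested only if its KO counts were high, so the filter partly sets this pattern. OASL, IFIT2, RSAD2, OAS3 and SP100 were at least 2-fold higher, which 8.38% of all tested genes were, and no member was at least 2-fold lower, against 1.11% of all tested genes. OASL, IFIT2 and RSAD2 reached the count filter only through the KO libraries, so nothing is read from the number at least 2-fold higher. The 2-fold share among genes that reached the filter in both arms was not counted. Among the 23 members that reached the filter in at least 2 libraries of both arms, 9 were higher and 5 lower, against 29.7% higher and 33.2% lower of all genes that did so. The median log2 fold change was 0.43 over the 26 tested members, -0.02 over these 23, and 0.0069 over all tested genes. By the mean level of KO and control, 3 of 4 members under 1 CPM were higher (40.8% of all genes at that level; the 3 are OASL, IFIT2 and RSAD2, so nothing is read from this count), 3 of 9 between 1 and 4 CPM (37.7%), 3 of 6 between 4 and 16 CPM (34.7%) and 3 of 7 at 16 CPM or more (28.7%). The lower members numbered 0, 1, 2 and 2 in the same order of levels, where 3.57%, 11.4%, 25.7% and 40.2% of all genes were lower.

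**Figure D1:**
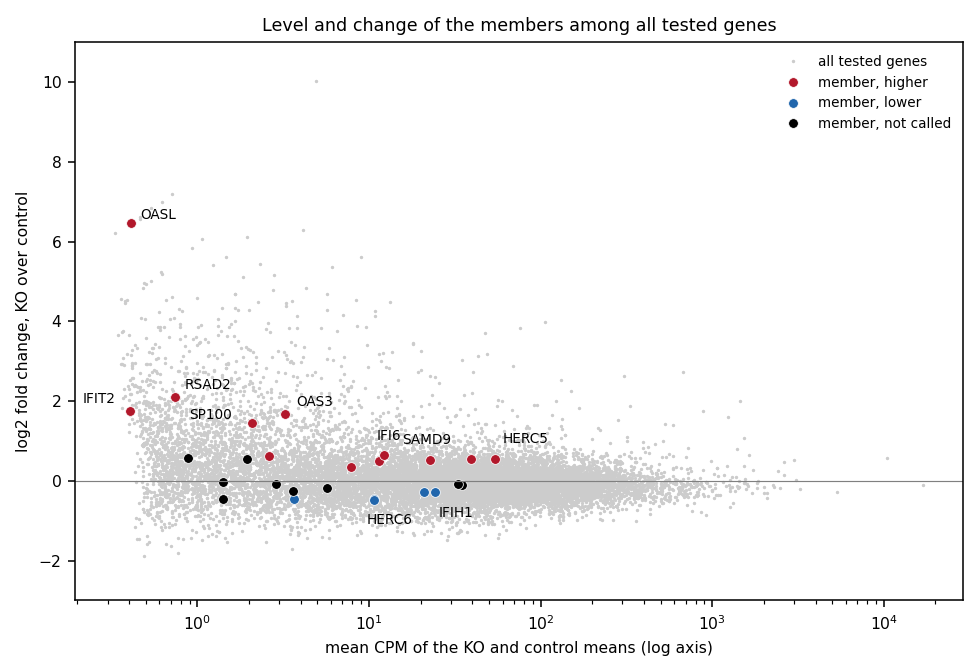
Each point is a gene, with the mean CPM of the KO and control means on a log axis and the log2 fold change of KO over control on the vertical axis; grey points are all 14455 tested genes and coloured points the 26 tested interferon-stimulated genes. OASL, RSAD2, IFIT2, OAS3 and SP100 stand above a log2 fold change of 1 at low levels, and the more abundant members lie near 0 on both sides. The fitted value of OASL, which had no control read, is no bound.

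In 11 of the 26 tested members (42.3%) every KO library lay above every control library, as in 27.3% of all tested genes. In 3 members (11.5%) every KO library lay below, as in 25.6% of all tested genes. Those above were STAT2, IRF1, OAS3, OASL, DDX60, HERC5, RSAD2, CMPK2, SAMD9, SP100 and IFI6, and those below were IFIH1, HERC6 and PARP9. OASL and RSAD2 reached the count filter only through the KO libraries, so nothing is read from their lack of overlap. The share without overlap among genes that reached the filter in both arms was not counted. The summed level of all 36 members was 334 ± 4.03 CPM in KO and 294 ± 7.37 CPM in control libraries (SD, n = 4 each), with ranges of 329.8 to 339.5 and 283.8 to 300.4. Without HERC5 and STAT2, members picked for this sum after their values were seen, it was 224 ± 1.55 CPM in KO and 217 ± 2.71 CPM in control libraries.

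The promoters of the members were searched for motifs of the interferon response, to show how matches are spread over members that rose, fell or were not called. RefSeq promoter windows on GRCh38.p14, running from 250 bases before to 50 bases after an annotated start, were matched for 29 of the 36 members, with 40 windows in all. The core of the interferon-stimulated response element, searched on both strands as 2 copies of GAAA with 2 bases of any kind between them and with overlapping matches counted singly, was in 57.5% of the member windows and in 3.57% of all 35116 windows. TTCNNNGAA, the element of the interferon gamma response, was in 22.5% of the member windows and 7.66% of all windows, and overlapped the first motif in 4 member windows. A match is a run of letters and was not measured as a bound site. By gene, the core of the response element was present in 7 of 10 members that were higher in KO, 2 of 4 that were lower, 7 of 9 that were not called and 3 of 6 that were not tested. The called members OASL, IFIT2 and USP18 had no matched window and are left out of these counts. STAT2, IRF1 and SP100 were higher in KO with no match to that core in their windows.

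The stretches printed here are the matched parts of 8 promoters, read 5′ to 3′ on the strand of the gene, with each match to that core or to its reverse complement in capitals and the flanks in lower case. They were chosen to set 5 members that were higher in KO (OAS3, HERC5, IFI6, DDX60 and SAMD9) beside 2 that were not called (ISG15 and IFIT1) and 1 that was lower (IFIH1). They lie at chr12:112938316-112938473 (plus strand) for OAS3, chr4:88456979-88457069 (plus) for HERC5, chr1:27672261-27672363 (minus) for IFI6, chr4:168318781-168318855 (minus) for DDX60, chr7:93118091-93118130 (minus) for SAMD9, chr1:1013369-1013414 (plus) for ISG15, chr10:89392492-89392544 (plus) for IFIT1 and chr2:162318685-162318858 (minus) for IFIH1.
OAS3: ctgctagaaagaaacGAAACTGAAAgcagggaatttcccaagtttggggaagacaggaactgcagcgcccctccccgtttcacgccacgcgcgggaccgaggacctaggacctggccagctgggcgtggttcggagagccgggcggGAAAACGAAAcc
HERC5: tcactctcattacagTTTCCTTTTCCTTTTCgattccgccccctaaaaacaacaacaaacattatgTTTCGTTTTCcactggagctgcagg
IFI6: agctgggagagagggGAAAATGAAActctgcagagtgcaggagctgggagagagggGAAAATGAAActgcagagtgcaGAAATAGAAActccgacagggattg
DDX60: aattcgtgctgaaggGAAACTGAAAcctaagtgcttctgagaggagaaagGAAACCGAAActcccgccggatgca
SAMD9: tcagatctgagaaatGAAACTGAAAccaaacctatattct
ISG15: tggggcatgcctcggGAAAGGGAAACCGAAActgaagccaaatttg
IFIT1: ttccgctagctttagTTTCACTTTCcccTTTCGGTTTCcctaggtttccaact
IFIH1: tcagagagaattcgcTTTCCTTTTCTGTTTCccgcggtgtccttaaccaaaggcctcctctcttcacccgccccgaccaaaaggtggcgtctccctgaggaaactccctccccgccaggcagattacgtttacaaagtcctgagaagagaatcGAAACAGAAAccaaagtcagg
In HERC5, ISG15 and IFIH1 adjoining matches overlap and form 1 longer run of capitals. IFI6 and IFIH1 each held 3 matches, with opposite directions of change.

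**Figure D2:**
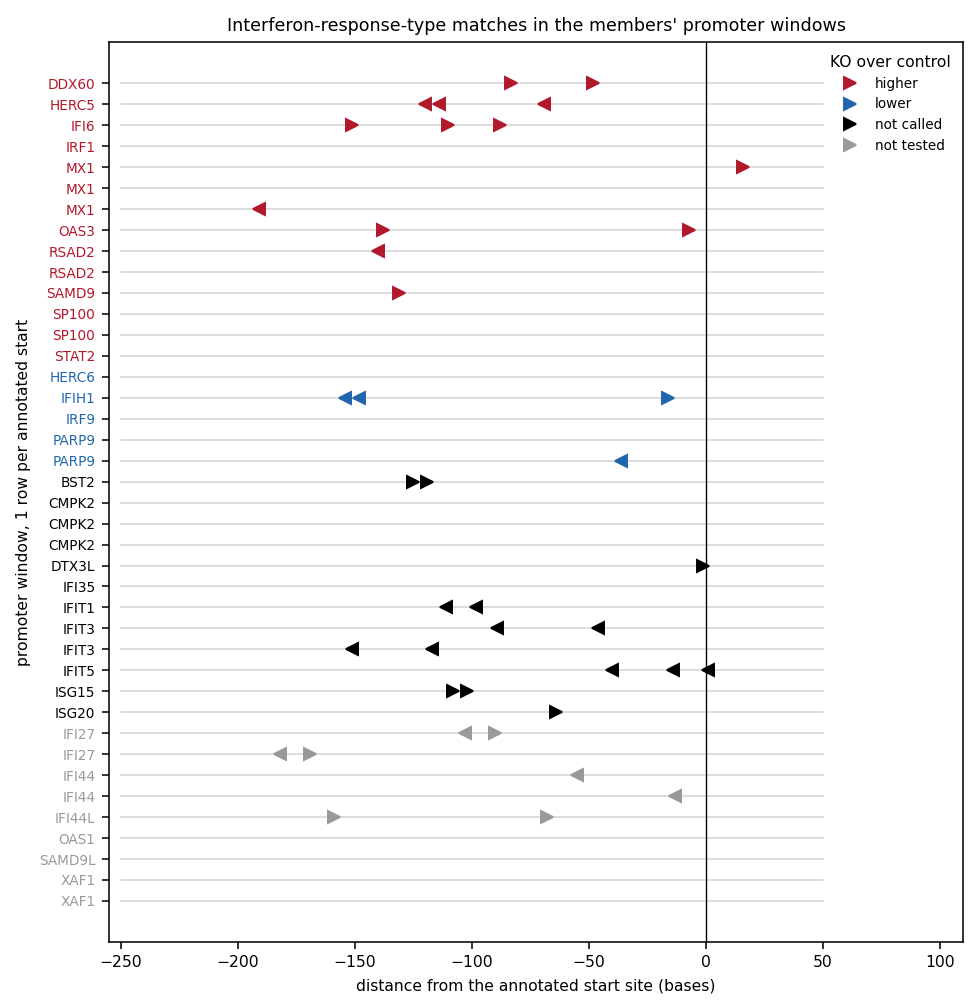
Each row is 1 promoter window of a member, drawn by distance in bases from the annotated start site, and each arrowhead is a match to the core of the interferon-stimulated response element, pointing right on the strand of the gene and left on the other strand; colour gives the call of KO over control. Each arrowhead marks the middle of a match, the first bases of the matches lie between -196 and 11 from the start, and matches occur in members that were higher, lower and not called.

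The transcription factors of the pathway moved apart. STAT2, the subunit that carries the activation domain of the interferon-activated complex (gene ID 6773, chromosome 12), had 45.4 and 41.6 CPM in KO sgRNA1 and 48.2 and 49.3 CPM in KO sgRNA2 libraries, against 29.9 and 36.3 CPM in control sgRNA1 and 34.4 and 28.9 CPM in control sgRNA2 libraries. Every KO library was above every control library, and the log2 fold change was 0.55 ± 0.069 (SE, edgeR adjusted p = 8.02e-07). IRF9, the DNA-binding subunit of the same complex, was lower, with 2.72 to 3.64 CPM in KO and 3.31 to 4.62 CPM in control libraries (-0.45 ± 0.17, adjusted p = 0.0271). The arms overlapped because control sgRNA1 replicate 1 had 3.31 CPM while the other 3 control libraries lay between 4.56 and 4.62 CPM. In GENCODE v29, a second gene on the strand of IRF9 covers 48.4% of its exons, so its counts are uncertain. Its adjusted p was 0.0529 without KO sgRNA1 replicate 1, 0.135 without KO sgRNA2 replicate 1, 0.0749 without control sgRNA2 replicate 1 and 0.0601 without control sgRNA2 replicate 2. By DESeq2 it was 0.0767, and in thinned counts the log2 fold change of IRF9 was -0.18 (adjusted p = 0.606).

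IRF1, an early-induced activator that also responds to interferon gamma, had 7.87 to 11.4 CPM in KO and 5.12 to 7.40 CPM in control libraries (0.34 ± 0.14, adjusted p = 0.0336). Its call was lost on leaving out KO sgRNA1 replicate 1 (0.20, adjusted p = 0.188), KO sgRNA2 replicate 1 (adjusted p = 0.0546), control sgRNA1 replicate 1 (0.0871) or control sgRNA1 replicate 2 (0.0863), by DESeq2 (0.0516) and in thinned counts (0.195), and 22% of its exonic bases overlap C5orf56 on the opposite strand. IRF7, the factor that amplifies interferon alpha production, had 2 counts in all KO libraries and none in control libraries and was not tested.

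The shares of all tested genes to set beside the counts of each role group and list are 31.8% higher and 31.2% lower, and no role group was tested against another. Among RNA sensors and the OAS family, 3 of 4 tested members were higher, with OASL among them, and 1 was lower. The OAS enzymes make short oligoadenylates from ATP when they bind double-stranded RNA. OAS3, the longest of them (gene ID 4940, chromosome 12, 112938474 to 112973251), had 5.20, 4.68, 5.17 and 4.37 CPM in the KO libraries and 1.37, 1.89, 1.24 and 1.87 CPM in the control libraries, in the order sgRNA1 replicates 1 and 2, sgRNA2 replicates 1 and 2. The arms were far apart, and the log2 fold change was 1.67 ± 0.19 (SE, adjusted p = 2.21e-07), a 3.19-fold difference. Its neighbours on chromosome 12, OAS1 and OAS2, were nearly silent, with 2 and 4 counts in all KO libraries and 4 and 0 counts in all control libraries, the 4 control counts of OAS1 all in control sgRNA2 replicate 2.

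OASL, an OAS-like protein without the enzyme activity that binds the sensor RIG-I (gene ID 8638, chromosome 12, 121017761 to 121039246), had 13, 14, 22 and 5 reads in the KO libraries and none in any control library. With 3 counts over the 4 control libraries as the floor it was at least 11.9-fold higher in KO (adjusted p = 4.44e-05), and the exact 95% interval of the counts, which also covers counting error in KO, has its lower limit at 9.36-fold. OASL reached the count filter only through KO libraries. DDX60, a helicase that promotes RIG-I signalling, had 13.4 to 13.5 CPM in the 4 KO libraries and 8.23 to 10.5 CPM in the control libraries (0.51 ± 0.097, adjusted p = 0.000116). With all libraries thinned to the depth of the smallest, its log2 fold change was 0.35 (adjusted p = 0.0669). IFIH1, the sensor MDA5 of long double-stranded RNA, went the other way, with 19.4 to 23.3 CPM in KO and 23.4 to 28.6 CPM in control libraries (-0.27 ± 0.081, adjusted p = 0.00632). It was not called without control sgRNA1 replicate 1 (-0.18, adjusted p = 0.0795) or in thinned counts (adjusted p = 0.135).

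The IFIT proteins bind viral RNA ends and keep them from the ribosome, and 4 of their genes lie in a row on chromosome 10. Of these 4, IFIT2 was called higher and the other 3 were not called. IFIT2 reached the count filter only through KO libraries, so nothing is read from this contrast within the family. IFIT2 had 14, 11, 13 and 5 reads in the KO libraries and 1, 0, 6 and 1 reads in the control libraries (log2 fold change 1.75 ± 0.56, adjusted p = 0.0100). Control sgRNA2 replicate 1 held 6 of its 8 control reads. On leaving it out, the log2 fold change was 3.12 (adjusted p = 0.00140), and without control sgRNA1 replicate 1 it was 1.34 (adjusted p = 0.0812). IFIT1, the classic marker of an interferon response, had 2.90 to 3.71 CPM in KO and 3.23 to 4.31 CPM in control libraries (-0.25 ± 0.17, adjusted p = 0.196). IFIT3, which stabilises IFIT1, had 0.594 to 1.52 CPM in KO and 0.488 to 0.808 CPM in control libraries (0.58 ± 0.36, adjusted p = 0.169). IFIT5 was the most abundant of the 4, at 33.8 ± 2.15 CPM in KO and 35.96 ± 1.17 CPM in control libraries (SD, n = 4 each, -0.11 ± 0.060, adjusted p = 0.131).

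The ISG15 system attaches the ubiquitin-like protein ISG15 to newly made proteins. Its genes were grouped here with other genes of ubiquitin-like systems, such as PARP9 and DTX3L. Of the 6 members of this mixed group, all tested, 3 were lower (31.2% of all tested genes) and 1 was higher (31.8%). The lower members were HERC6, PARP9 and USP18, which removes ISG15. ISG15 itself had 4.44, 5.94, 5.17 and 5.09 CPM in the KO libraries and 5.49, 8.08, 5.45 and 5.61 CPM in the control libraries. The arms overlapped, and the change was not called (-0.18 ± 0.14, adjusted p = 0.292). HERC5, the ligase that conjugates ISG15, had 64.0, 63.3, 68.5 and 61.9 CPM in the KO libraries and 47.8, 45.2, 43.2 and 40.3 CPM in the control libraries (0.55 ± 0.057, adjusted p = 5.23e-08). It was the member with the most reads, 6078 in all 8 libraries. Its neighbour HERC6, a related gene on chromosome 4, had 8.40 to 9.72 CPM in KO and 12.1 to 12.6 CPM in control libraries, a change in the other direction (-0.46 ± 0.096, adjusted p = 0.000326). The KO and control libraries did not overlap for either gene.

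USP18, the protease that removes ISG15 and that also blocks the type I receptor, was lower, with 7.94 to 10.6 CPM in KO and 9.96 to 14.1 CPM in control libraries (-0.48 ± 0.11, adjusted p = 0.00101). USP18 has near-identical copies on chromosome 22, and reads shared with them may have been counted or dropped. PARP9 and DTX3L encode partners of one ubiquitin ligase complex from neighbouring genes on chromosome 3. PARP9 was lower (18.5 ± 1.27 CPM in KO and 23.4 ± 3.12 CPM in control libraries, SD, n = 4 each, -0.29 ± 0.084, adjusted p = 0.00554), though not in thinned counts (-0.20, adjusted p = 0.232). DTX3L had 32.1 ± 1.24 CPM in KO and 33.8 ± 1.90 CPM in control libraries and was not called (-0.07 ± 0.061, adjusted p = 0.318).

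Of the 10 antiviral effectors, 7 were tested, 4 were higher (31.8% of all tested genes), 0 were lower (31.2% of all tested genes) and 3 were not called. Of the 4, RSAD2 reached the count filter only through KO libraries. RSAD2 encodes viperin, which makes a chain-terminating nucleotide, and had 20, 12, 30 and 17 reads in the KO libraries and 4, 1, 2 and 5 reads in the control libraries. That is 1.19 ± 0.281 CPM in KO and 0.284 ± 0.113 CPM in control libraries (SD, n = 4 each), without overlap (log2 fold change 2.10 ± 0.40, adjusted p = 0.000101). CMPK2, the mitochondrial nucleotide kinase next to it on chromosome 2, had 2.04 to 2.75 CPM in KO and 0.269 to 2.02 CPM in control libraries. It missed the threshold (0.56 ± 0.25, adjusted p = 0.0593) and passed it without control sgRNA1 replicate 1 (adjusted p = 0.0477) or control sgRNA2 replicate 2 (0.0489). Its lowest control value was 1 read in control sgRNA1 replicate 2, without which the log2 fold change of CMPK2 was 0.398, and over all alternatives its adjusted p lay between 0.0347 and 0.149.

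SP100, a constituent of PML nuclear bodies that restrains viral genomes (gene ID 6672, chromosome 2, 230416201 to 230545606), had 3.33, 3.64, 2.82 and 2.58 CPM in the KO libraries and 0.646, 0.808, 1.45 and 1.30 CPM in the control libraries. Every KO library was above every control library, and on the log2 scale the difference was 1.45 ± 0.25 (adjusted p = 4.04e-05). In the control arm, both sgRNA1 control libraries were below both sgRNA2 control libraries. SAMD9, a translation inhibitor active against poxviruses, had 25.1 to 28.7 CPM in KO and 15.6 to 19.6 CPM in control libraries (0.53 ± 0.077, adjusted p = 4.66e-06), while its paralog and neighbour SAMD9L had 8 reads in all KO and 6 in all control libraries. MX1, a dynamin-like GTPase that traps viral nucleoproteins, had 2.61 to 4.30 CPM in KO and 1.30 to 2.76 CPM in control libraries (0.63 ± 0.23, adjusted p = 0.0199), with an overlap of 1 control library. Its log2 fold change was 1.00 without that library, control sgRNA2 replicate 1, and the call was lost without KO sgRNA1 replicate 2 (adjusted p = 0.0686), control sgRNA1 replicate 1 (0.114) or control sgRNA2 replicate 2 (0.0941), and in thinned counts (0.244). BST2, the tether that holds budding virions (-0.46 ± 0.28, adjusted p = 0.159), and ISG20, an exonuclease (-0.02 ± 0.30, adjusted p = 0.961), were not called.

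IFI6, a small membrane protein of mitochondria and the endoplasmic reticulum (gene ID 2537, chromosome 1), had 15.1, 15.7, 14.4 and 14.9 CPM in the KO libraries and 8.23, 8.88, 11.9 and 8.79 CPM in the control libraries. Every KO library was above every control library (0.64 ± 0.11, adjusted p = 3.27e-05). IFI35, which modulates signalling together with NMI, had 2.32 to 3.34 CPM in KO and 2.48 to 3.23 CPM in control libraries and was not called (-0.07 ± 0.18, adjusted p = 0.766). Per kilobase of the gene length in the tables, IFI6 and HERC5 had the highest levels, 17.4 and 17.3 CPM per kb in KO and 11 and 11.8 CPM per kb in control libraries, followed in KO by STAT2 (9.24), IFIT5 (8.38) and ISG15 (7.74).

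**Figure D3:**
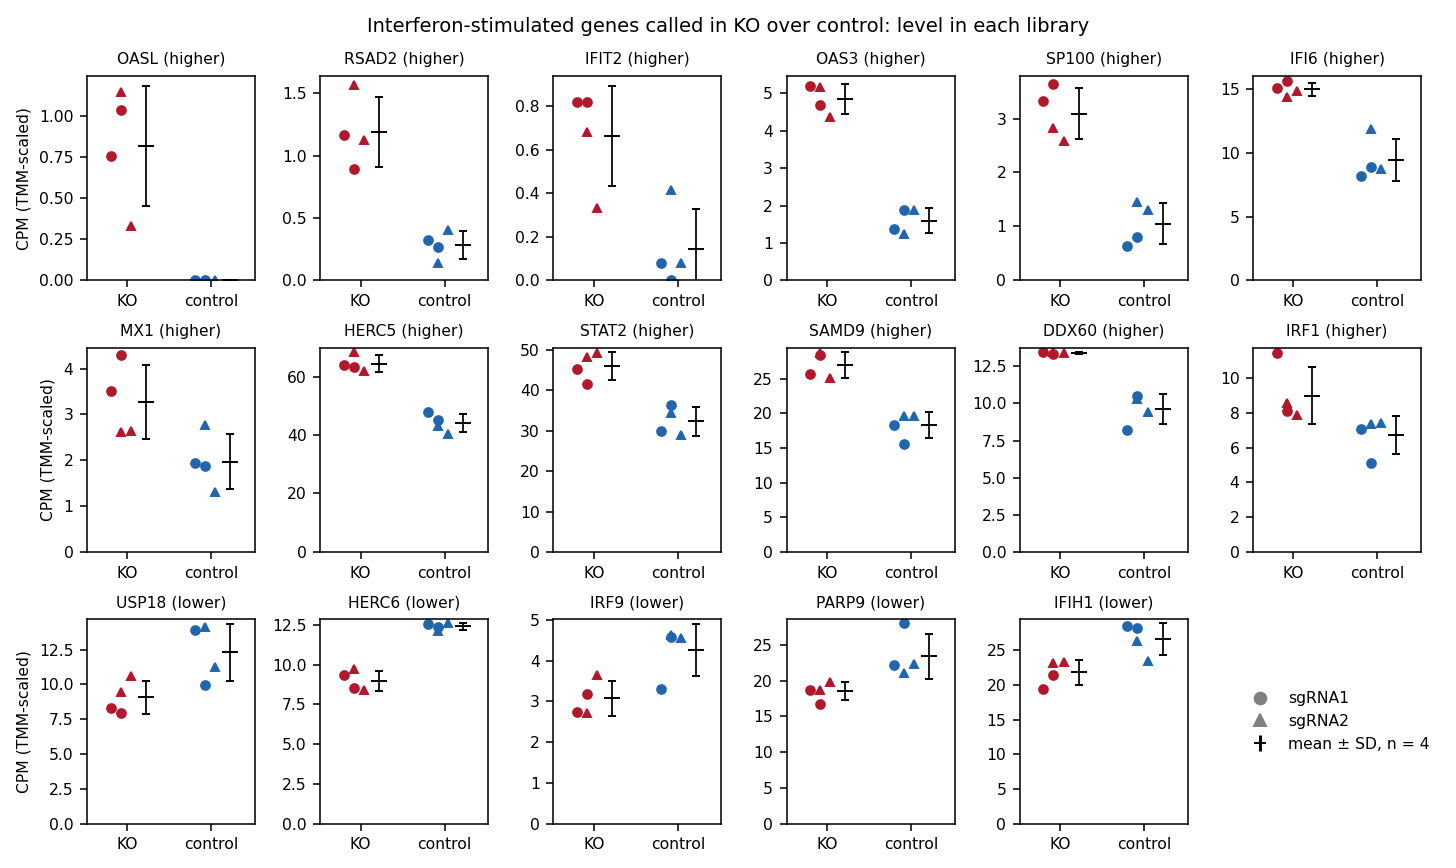
Each panel shows 1 of the 17 called members, with CPM on a linear axis from 0, KO libraries in red left of control libraries in blue, circles for sgRNA1 and triangles for sgRNA2, and bars for the mean ± SD of 4 libraries. OAS3, SP100, RSAD2, IFI6 and HERC5 show KO libraries wholly above control libraries, HERC6 shows them wholly below, and MX1, IRF9, USP18 and IFIT2 overlap.

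The 10 members too rare to test held 47 reads in all KO libraries and 53 in all control libraries, with at most 33 reads for 1 gene. IFI27, often the most strongly induced gene in patients' blood, had no read in any library, which allows up to 0.0463 CPM over the KO and 0.0699 CPM over the control libraries, for counting error only. XAF1, a pro-apoptotic factor, had 1 read in KO and none in control libraries, and MX2, a restriction factor of HIV, had 2 and 1. IFI44, a paralog of IFI44L, had 7 reads in KO and 9 in control libraries, and TRIM22, a ubiquitin ligase, had 12 and 9. IFI44L had 1, 7, 1 and 0 reads in the KO libraries and 6, 2, 9 and 7 in the control libraries, a CPM ratio of KO over control of 0.248 (exact 95% interval of the counts 0.102 to 0.553). Of its 9 KO reads, 7 lay in KO sgRNA1 replicate 2, so the interval, which covers counting error only, understates its spread. The other 9 untested members had at most 21 reads each.

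**Figure D4:**
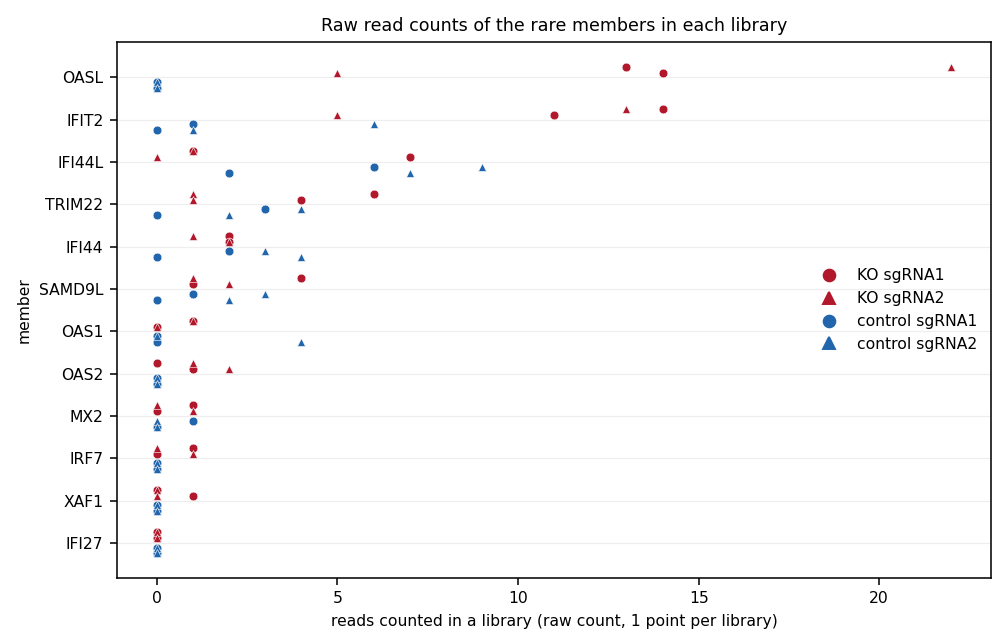
Raw reads per library for the 10 untested members and for OASL and IFIT2, with 1 point per library, red for KO and blue for control, circles for sgRNA1 and triangles for sgRNA2. OASL has reads in all 4 KO and in none of the 4 control libraries, IFI44L has more reads in control than in KO libraries, and the rest are at 6 reads or fewer except IFIT2.

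Within sgRNA1, 12 of the 26 tested members were higher and 4 lower in KO, where 24.3% and 23.3% of all tested genes were. Within sgRNA2, 9 were higher and 3 lower, where 25.7% and 25.4% of all tested genes were. OASL, IFIT2 and RSAD2, called higher within sgRNA1, reached the count filter only through the KO libraries. OASL and RSAD2 were called higher within sgRNA2 too. Calls by guide among genes that reached the filter in both arms were not counted, so nothing is read from the higher counts. All 12 members that were higher over both guides, and all 5 that were lower, had the same sign with each guide. The overall calls rest on the same libraries, so this shared sign follows largely from the choice of members and is no replication. The same holds for the calls by guide that follow, whose share over all genes called overall was not counted. Of the 12, 9 were called with each guide on its own and 3 (IRF1, IFIT2 and MX1) with sgRNA1 and not with sgRNA2. Of the 5, HERC6 was called with each guide, IFIH1, PARP9 and USP18 with sgRNA1, and IRF9 with sgRNA2. IFIT5 was lower with sgRNA2 (-0.21 ± 0.076, adjusted p = 0.0305) and had 0.02 ± 0.085 with sgRNA1.

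The difference between the guides was tested directly and called for no member, and for 0% of all genes, by edgeR. At an unadjusted p under 0.05 the difference included 2 members by edgeR, 2 by limma-voom and 0 by DESeq2. The share of all genes at that unadjusted threshold was not counted, so nothing is read from these counts. SP100 had a log2 fold change of 2.33 ± 0.37 with sgRNA1 and 0.97 ± 0.27 with sgRNA2, a difference of -1.36 ± 0.49 (unadjusted p = 0.0132, adjusted p = 1). For IFIH1 the values were -0.48 ± 0.11 with sgRNA1 and -0.10 ± 0.095 with sgRNA2, a difference of 0.38 ± 0.14 (unadjusted p = 0.0155, adjusted p = 1).

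**Figure D5:**
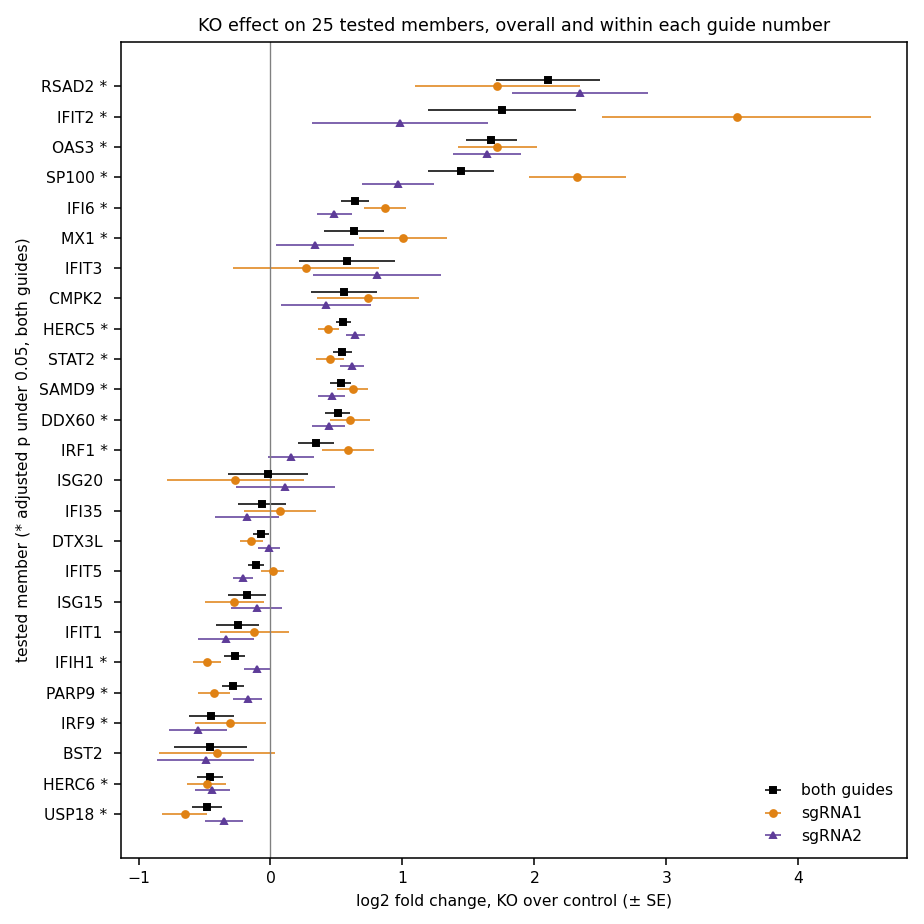
Log2 fold change of KO over control with its SE for 25 tested members, over both guides (black squares), with sgRNA1 (orange circles) and with sgRNA2 (purple triangles); OASL, without control reads, is left out. Members run from RSAD2 at the top to USP18 at the bottom, and IFIT2 and SP100 show the widest gap between guides.

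In the lists of other pathway components, 23 genes were higher and 23 lower. As shares of the genes tested in these lists, both lay close to those of all tested genes, 31.8% higher and 31.2% lower. Interferon genes were close to silent. Of 22 ligands, 17 had no read at all, IFNB1 among them, and the list held 24 reads in all KO and 4 in all control libraries, 15 and 4 of them at IFNE, an epithelial interferon. The lambda interferons IFNL1 and IFNL3 had 4 and 3 reads in KO and none in control libraries. No ligand had enough reads for a test.

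Of 10 receptor and signalling genes, 5 were higher and 1 lower. JAK1 had 205.4 ± 5.75 CPM in KO and 126 ± 10.0 CPM in control libraries (SD, n = 4 each, 0.69 ± 0.048, adjusted p = 1.47e-10), TYK2 rose by 0.23 ± 0.053 on the log2 scale and IFNGR1, a receptor chain for interferon gamma, by 0.33 ± 0.051. Among 12 tested nucleic-acid sensors and adaptors, 2 were higher and 7 lower (31.8% and 31.2% of all tested genes). These genes lie at different levels. The shares lower were 40.2% of all genes at 16 CPM or more, 25.7% at 4 to 16 CPM and 11.4% at 1 to 4 CPM. The shares higher were 28.7%, 34.7% and 37.7% in the same order. RIGI, the sensor of short double-stranded RNA ends, had 12.5 ± 0.998 CPM in KO and 6.55 ± 0.832 CPM in control libraries (0.94 ± 0.11). The endosomal sensor TLR3 (-0.99 ± 0.22) and the kinase EIF2AK2 (-0.36 ± 0.051) were lower.

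Among 6 genes that limit sensing of the cell's own nucleic acids, 2 were higher and 4 lower. The editing enzyme ADAR (-0.26 ± 0.043) and the exonuclease TREX1 (-0.64 ± 0.20, adjusted p = 0.00745) were lower, as was the RNase H2 subunit gene RNASEH2C (-0.33 ± 0.051), whereas RNASEH2A was higher (0.20 ± 0.053). All annotated exonic bases of TREX1 overlap ATRIP on the same strand, those of RNASEH2C overlap KAT5 on the other strand over 28.2%, and those of RNASEH2A overlap another gene on its strand over 30.8%. In thinned counts TREX1 had an adjusted p of 0.0585.

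Of 11 negative regulators, 3 were higher and 1 lower. SOCS1, an inhibitor of JAK kinases that interferon itself induces, had 3.68 ± 0.553 CPM in KO and 0.808 ± 0.251 CPM in control libraries (SD, n = 4 each, 2.13 ± 0.22, adjusted p = 5.32e-08). TRIM24, a repressor of retinoic acid and interferon signalling in mice, rose by 0.53 ± 0.052, and the phosphatases PTPN6 (0.38 ± 0.13, adjusted p = 0.0171) and PTPN2 (-0.14 ± 0.059, adjusted p = 0.0399) changed in opposite directions. PTPN6 was not called without any 1 of 4 libraries (KO sgRNA1 replicate 2, KO sgRNA2 replicate 1, control sgRNA1 replicate 1 or control sgRNA2 replicate 2, adjusted p = 0.0614 to 0.0761). PTPN2 was not called on leaving out KO sgRNA1 replicate 1 or 2, KO sgRNA2 replicate 1 or 2, control sgRNA1 replicate 1 or control sgRNA2 replicate 2 (adjusted p = 0.0577 to 0.167). With all libraries kept, PTPN2 also lost its call with library totals (adjusted p = 0.109), by DESeq2 (0.128) and in thinned counts (0.712). The same held with CPM of at least 1 in 4 libraries (0.0552) and with a replicate block (0.0644).

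A further 34 interferon-induced genes split evenly, with 9 of 27 tested higher and 9 lower. The restriction factor TRIM5 rose by 0.80 ± 0.075 and NMI, the partner of IFI35, by 1.48 ± 0.24, while TRIM14, an adaptor of MAVS signalling, was the most clearly lower (32.5 ± 2.59 CPM in KO and 66.3 ± 3.18 CPM in control libraries, SD, n = 4 each, -1.02 ± 0.060, adjusted p = 1.18e-11). LGALS3BP (-0.44 ± 0.042), a secreted glycoprotein, and the aminopeptidase LAP3 (-0.46 ± 0.048) were lower too. Of 14 antigen presentation genes, 6 were tested, 2 were higher and 1 lower. HLA-B rose by 0.93 ± 0.10 and the immunoproteasome subunit PSMB10 was lower (-0.91 ± 0.12), with 34.8% of its exonic bases shared with another gene on its strand. HLA-C had 0.19 ± 0.077 (adjusted p = 0.0377) and lost its call without KO sgRNA1 replicate 1, KO sgRNA2 replicate 2, control sgRNA1 replicate 2, control sgRNA2 replicate 1 or control sgRNA2 replicate 2 (adjusted p = 0.0584 to 0.161). With all libraries kept, HLA-C also lost its call by DESeq2 (adjusted p = 0.073), with no filter (0.0599), in thinned counts (0.112) and with no guide term (0.0581). HLA genes are near copies of each other, so reads may be split between them. TAP1, PSMB8 and PSMB9, which lie in the same region of chromosome 6, were listed at 0 in all 8 libraries, as was TRIM26 from the same region, and whether this came from the counting was not tested.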

How the data were processed

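The authors deposited 1 table of raw counts per library, whose other value is a gene length, per the file headers. The libraries were stranded poly(A) TruSeq, read as 80 bp pairs, per the labels' protocols. Counting was by featureCounts on hg38, per the submitters' processing notes. Aligner, annotation release and strand setting: not given in the sources used here. Of 28395 entries, 459 had no gene ID (0.0284 to 0.0425% of counts) and were left out. RefSeq (GRCh38.p14) gave positions, promoters and the names of 27744 of 27936 genes. Exon overlaps came from GENCODE v29, where RIGI and STING1 were not found.

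The filter was filterByExpr over 4 groups of 2 libraries (minimum count 10, total 15). KO was compared with control by edgeR 4.0.16 (R 4.3.3, TMM, quasi-likelihood test) in an additive model of guide and arm, with 5 residual degrees of freedom. Contrasts within and between guides came from the 4 group means with 4. Benjamini-Hochberg adjustment ran over the 14455 tested genes, with a threshold of 0.05. The fit was tested on simulated data. Because separate cultures are not stated for the replicates, p-values cover only the spread among libraries. Count intervals are exact 95% Poisson intervals, and the floor is 3 counts per arm; both cover counting error only.

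The members and lists were chosen with earlier results of these data known. All 36 members are named. Of each other list, the rule names every called gene changed at least 2-fold and up to 4 with the smallest p, and KAT5 checks the labels. Some genes that the rule names are not reported here. Ligands, markers and genes listed at 0 are named outside that rule, after their values were seen. Alternatives were DESeq2 size factors, library totals, DESeq2 1.42.0, limma-voom 3.58.1, no filter, CPM of at least 1 in 4 libraries, thinned counts, each library left out, a replicate block, no guide term and, added after seeing the data, a test against a fold of 1.5.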

Additional observations from a re-analysis of the deposited data

Results flagged for a closer look

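In 51 sets of 4 libraries, 1 member in 1 arm each, Dixon's test at the 95% level (critical value 0.829) marked 4 libraries as far from the other 3 of their arm. Chance alone marks about 1 in 20 such sets. All 4 were control libraries. IRF9 had 3.31 CPM in control sgRNA1 replicate 1, where the others had 4.56 to 4.62. IRF1 had 5.12 CPM (19 reads) in control sgRNA1 replicate 2, where the others had 7.10 to 7.40. ISG15 had 8.08 CPM (30 reads) in control sgRNA1 replicate 2, where the others had 5.45 to 5.61. IFIT3 had 0.488 CPM (6 reads) in control sgRNA2 replicate 2, where the others had 0.759 to 0.808.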

How the results depend on the processing

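With every library thinned to the smallest, 20 members were tested, of which 6 were higher and 2 lower (12 and 5 of 26 at full depth). In these thinned counts, 6 and 1 members were called within sgRNA1 and 4 and 0 within sgRNA2. Over all genes, fewer were tested in thinned counts than at full depth, and fewer were called higher and fewer lower. The drop in member calls is therefore not read as particular to the members. A test against a fold of 1.5, added after seeing the data, called 4 members higher and 0 lower. The 3 members lower within sgRNA2 became 1 with library totals and 0 with DESeq2. The numbers of all genes called by the test against a fold of 1.5, and within each guide at any alternative, were not counted. Over all tested genes, leaving out 1 library gave 4209 to 4583 higher and 4176 to 4739 lower in KO. Leaving out 1 library gave 10 to 12 members higher and 4 to 5 lower, 7 to 12 higher and 2 to 4 lower within sgRNA1, and 6 to 10 higher and 1 to 4 lower within sgRNA2, with 0 called for the guide difference in each. Of the 17 called members, 10 were called at each of these settings that tested them, the test against a fold of 1.5 apart: HERC5, HERC6, IFI6, OAS3, OASL, RSAD2, SAMD9, SP100, STAT2 and USP18. Among them, OASL and RSAD2 were not tested in thinned counts or with CPM of at least 1 in 4 libraries. ISG20 and IFI35 were not called at any setting that tested them, the test against a fold of 1.5 apart, and changed sign. ISG20 had 0.0148 with library totals and 0.0186 with limma-voom. Leaving out 1 library gave -0.22 to 0.17 for ISG20 and -0.142 to 0.0274 for IFI35. Same-numbered replicates did not deviate together (r = 0.0123 for sgRNA1 and 0.0253 for sgRNA2, across genes), so the replicate numbers are not taken to pair samples. With a replicate block the members higher and lower were 12 and 5, and of the 14455 tested genes 4528 were higher and 4453 lower. The cause of these changes was not tested.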
